A study of Drosophila melanogaster with 9 samples.

Results

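The CD36-family genes ninaD (FBgn0002939), santa-maria (FBgn0025697), emp (FBgn0010435), crq (FBgn0015924), pes (FBgn0031969), Snmp1 (FBgn0260004) and Snmp2 (FBgn0035815) were followed across renal tubules of healthy and tumour-bearing Drosophila melanogaster. They are 7 of 17611 genes in the deposited count table, and each FlyBase identifier was matched to its symbol. ninaD and emp were chosen because their counts were lower in tumour flies and above control in tumour flies with ITP knockdown, so their values are given here as a description, with no test. The other 5 were chosen by family, and their differences were tested.

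Polyadenylated RNA of Malpighian tubules, the fly's renal organ, was sequenced in 9 libraries, 3 in each of 3 groups. All flies had the drivers esg-Gal4 with tub-Gal80ts plus a UAS-GFP reporter, a system that turns on transgenes in esg-expressing progenitor cells of gut and tubule once the temperature is raised. Control flies carried nothing more, yki3SA flies added UAS-Yki-3SA, which makes constitutively active Yorkie, and the third group (ITP-i) added both UAS-Yki-3SA and UAS-ITP-i, which targets the hormone gene ITP by RNAi. Virgin progeny stayed 6 to 8 days at 18 °C before 8 days of induction at 29 °C, and 80 tubules were pooled per genotype. No group carried a neutral RNAi transgene. Titles of control and yki3SA samples, but not of ITP-i samples, carry a re-analysis mark, so the ITP-i genotype and that mark cannot be told apart. Nothing in the labels tells if libraries of a group came from separate flies, and p-values then measure only the spread between these libraries, which may be technical. Libraries are named by group and replicate number (control 1).

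CD36-family proteins are membrane receptors with a large extracellular domain that bind lipids, lipoproteins, carotenoids or dying cells and pass them into the cell. In the fly, ninaD takes up dietary carotenoids in the gut and santa-maria takes them into cells of the head, where the enzyme ninaB cleaves them to make the visual chromophore. crq is the macrophage receptor for apoptotic cells, pes is needed for uptake of mycobacteria in cultured fly cells, and emp is an epithelial scavenger receptor that clears secreted proteins from the airway lumen. Snmp1 is required in olfactory neurons to sense a lipid pheromone, and Snmp2 is expressed in the support cells around such neurons.

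Total counts ran from 34640437 to 49338340 per library. Markers of principal cells, the main transporting cells of the tubule, summed to 8271 to 11270 CPM for control, 7367 to 7872 CPM for yki3SA and 8146 to 8403 CPM for ITP-i. CPM are counts scaled to equal library totals, here without further factors. Those of stellate cells summed to 1202 to 1397, 1135 to 1250 and 964.2 to 1118 CPM, with no listed marker of either at 0. In yki3SA against control edgeR called 4 of 9 principal cell and 2 of 7 stellate cell markers lower and 0 higher, against 14% and 16.2% of all genes. On the TMM scale used below for single genes, ITP was at 32.7, 33.5 and 44.7 CPM for control, 56.85, 77.0 and 71.2 CPM for yki3SA and 51.7, 63.7 and 60.4 CPM for ITP-i, and its difference between ITP-i and yki3SA tubules was not called (log2 fold change -0.22, SE 0.16, adjusted p = 0.348, edgeR). yki was at 62.95 to 78.8 CPM for control, 74.7 to 89.7 CPM for yki3SA and 67.6 to 84.6 CPM for ITP-i, a count that cannot separate the transgene from the native gene. Markers of neighbouring organs also differed between groups. The summed level of 18 gut enterocyte markers was 369 to 996 CPM for control, 21.2 to 113 CPM for yki3SA and 159 to 433 CPM for ITP-i, and that of 9 fat body markers was 2150 to 4732, 178 to 334 and 1775 to 3104 CPM. Antennal odorant-binding genes also set libraries apart: Obp83a was at 21.6 and 23.6 CPM for control libraries 2 and 3 and 3.85 CPM for yki3SA 3, against at most 0.2455 CPM in the other 6. In bulk tissue, fewer cells of a type and less RNA per cell cannot be told apart.

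Snmp2 showed the largest tested difference of the 5 genes. Its level was 70.3, 79.4 and 71.7 CPM in the control libraries, 9.77, 8.39 and 7.60 CPM for yki3SA and 14.5, 13.5 and 19.4 CPM for ITP-i (CPM scaled with TMM factors, which correct for composition). Every tumour library lay far below every control library, and the ITP-i libraries lay between the other two groups without overlapping either. Control 1, with 0 counts of the antennal gene Obp83a, held 70.3 CPM of Snmp2. Snmp2 fell 8.605-fold in yki3SA against control (73.8 ± 4.90 to 8.59 ± 1.10 CPM, mean ± SD, n = 3; log2 -3.11, SE 0.17, adjusted p = 3.06e-06, edgeR quasi-likelihood test with Benjamini-Hochberg adjustment over all 10253 genes tested). It was 1.84-fold higher in ITP-i than in yki3SA (15.8 ± 3.16 CPM; log2 0.88, SE 0.16, adjusted p = 0.00511) and remained 4.67-fold below control (log2 -2.22, SE 0.16, adjusted p = 4.01e-05). Each of these calls held in all 20 alternatives tried, with adjusted p at most 0.000479, 0.0392 and 0.00189. In the same ITP-i libraries the summed fat body markers were at 69.7% of their control mean and the summed gut markers at 44.5%. Both sums are in total-count CPM. Gut markers differed among themselves, with LysD at 93.4 CPM for control and 1.75 CPM for ITP-i, and betaTry at 49.8 and 48.7 CPM. Snmp2 was at 21.4% in TMM-scaled CPM. The part of other tissues in the Snmp2 difference was not tested.

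Across all genes, 30.1% were called in yki3SA against control (16.2% higher and 14% lower), 20.7% in ITP-i against yki3SA (10.6% higher and 10.1% lower) and 10.5% in ITP-i against control (6.37% higher and 4.14% lower), where called means an adjusted p under 0.05. Of the 5 tested genes, Snmp2 and santa-maria fell and crq rose in yki3SA against control. Snmp2 and pes rose in ITP-i against yki3SA, and Snmp2 and santa-maria were lower in ITP-i than in control. With so many genes called, these counts say little about the family. Leaving out control libraries 2 and 3 and yki3SA 3, those with antennal transcripts, leaves a lone control library. In that fit the calls of santa-maria and crq in yki3SA against control were lost (log2 -1.75 and 0.50, against -1.60 and 0.42 with all libraries). That of pes in ITP-i against yki3SA was lost too (log2 0.37 against 0.42). Calls of Snmp2 in all 3 comparisons and of santa-maria in ITP-i against control were kept. The cause of calls lost in this fit, here and below, was not tested, and the smaller number of samples is part of the construction. Libraries of the groups did not overlap for 45.8% of all genes in yki3SA against control (19.8% lower), 41.8% in ITP-i against yki3SA (22.6% lower) and 30.7% in ITP-i against control (14.8% lower).

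**Figure D1:**
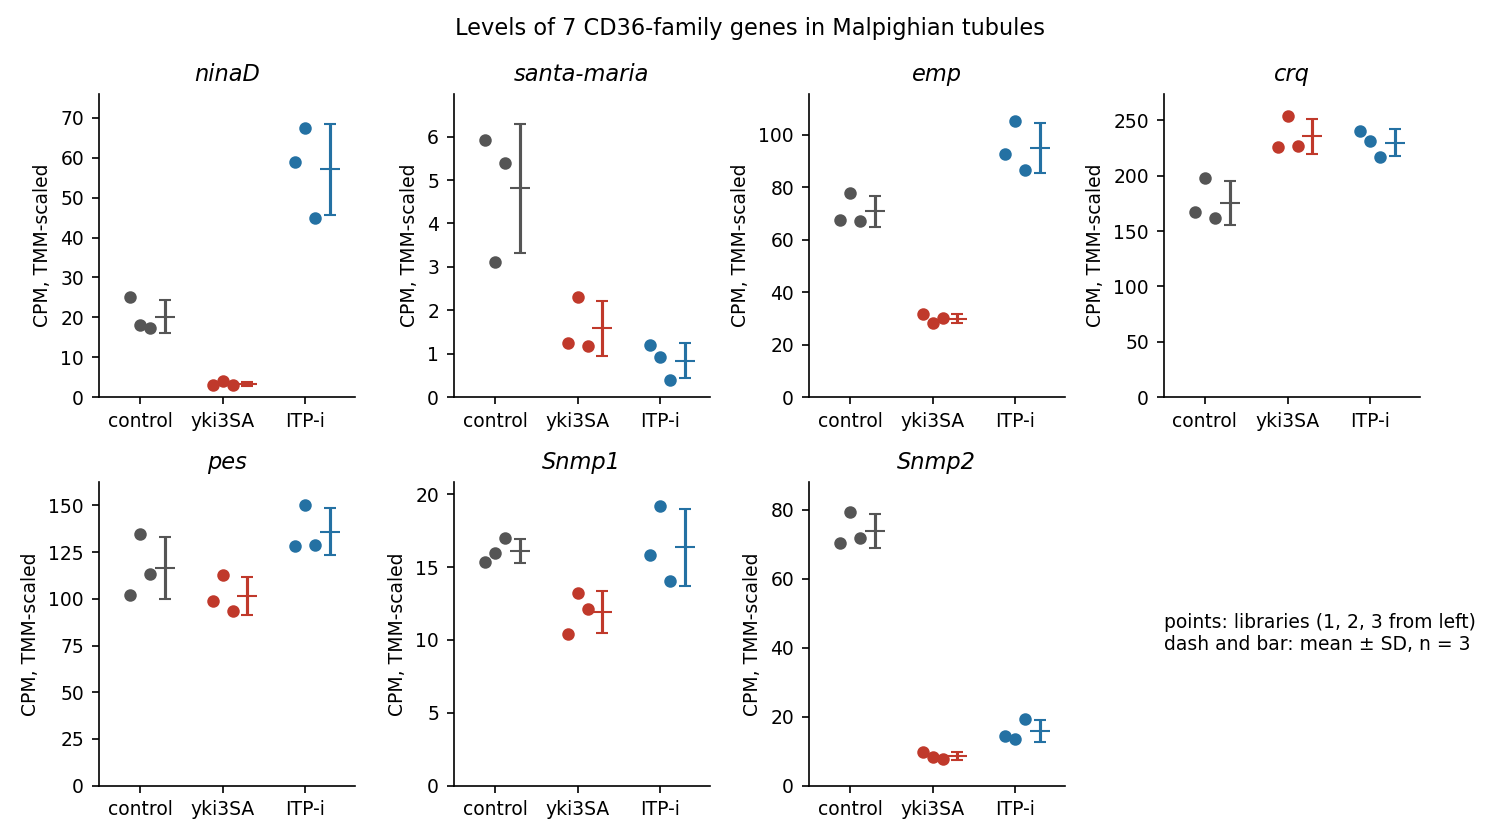
Level of each of the 7 genes in every library, in CPM scaled with TMM factors (linear axes from 0), with control in grey, yki3SA in red and ITP-i in blue. Points are libraries, and the dash with its bar is the mean ± SD of 3 libraries. ninaD and emp are lowest in yki3SA and highest in ITP-i, Snmp2 and santa-maria are low in both tumour groups, and crq is higher in both.

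ninaD, the carotenoid uptake receptor of the gut, had the largest ratio between group means of the 7 genes. It was at 25.0, 18.1 and 17.4 CPM for control, 3.08, 3.94 and 2.98 CPM for yki3SA and 58.9, 67.5 and 44.8 CPM for ITP-i, from 113 to 2645 counts per library. The 3 groups did not overlap. The means were 20.2 ± 4.21, 3.33 ± 0.527 and 57.1 ± 11.45 CPM (SD, n = 3), a level 6.05-fold lower in yki3SA than in control and 17.1-fold higher in ITP-i than in yki3SA. ITP-i exceeded control 2.83-fold. These are the values that chose the gene, and no test is given. The log2 fold change between ITP-i and control was 1.5 with all libraries and 1.18 when control libraries 2 and 3 and yki3SA 3, the libraries with antennal transcripts, were left out. The summed gut enterocyte markers were also lowest in yki3SA, at 9.1% of their control mean against 16.5% for ninaD. In ITP-i the summed gut markers stood at 44.5% of the control mean, and ninaD at 283%. Single gut markers went different ways. For control, yki3SA and ITP-i, LysD was at 93.4, 1.13 and 1.75 CPM and betaTry at 49.8, 1.37 and 48.7 CPM. Vha100-4 was at 1.08, 1.09 and 3.41 CPM. Of 18 tested gut markers edgeR called 1 higher and 4 lower in ITP-i against control (6.37% and 4.14% of all genes). The marker percents are of total-count CPM and those of ninaD of TMM-scaled CPM. The part of gut cells in the ninaD difference was not tested.

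emp, the epithelial scavenger receptor, had the same order of groups with smaller ratios. It was at 67.45, 77.7 and 67.3 CPM for control, 31.6, 28.1 and 30.2 CPM for yki3SA and 92.8, 105.3 and 86.5 CPM for ITP-i. No 2 groups overlapped. The means were 70.8 ± 5.95, 30.0 ± 1.76 and 94.8 ± 9.57 CPM, which is 2.36-fold lower in yki3SA than in control, 3.165-fold higher in ITP-i than in yki3SA and 1.34-fold higher in ITP-i than in control, again as a description with no test. The mean summed level of 7 tracheal markers had the same order of groups, but control libraries overlapped both other groups. In CPM of total counts, without TMM factors, the sum was 27.2, 35.45 and 40.01 CPM for control, 28.2, 27.1 and 25.6 CPM for yki3SA and 37.5, 39.1 and 50.8 CPM for ITP-i. Of 6 tested tracheal genes 1 fell and 0 rose in yki3SA against control (14% and 16.2% of all genes). It was Gasp, a chitin-binding protein of the airway lining (13.3 to 8.69 CPM, adjusted p = 0.0226, edgeR). The chitin deacetylase gene serp (5.23 to 10.2 CPM, adjusted p = 0.0164) and the FGF receptor gene btl (2.64 to 6.64 CPM, adjusted p = 0.0108) rose in ITP-i against yki3SA, 2 of the 6 against 10.6% of all genes. The calls of Gasp and btl were lost, and that of serp was kept, without the 3 libraries with antennal transcripts. By group mean btl, serp, verm, pio and knk had the order of emp, knk at 1 to 17 counts per library. Gasp, at 11.7 CPM for ITP-i, and trh were highest in control instead. The means of trh were 4.62, 3.14 and 3.22 CPM for control, yki3SA and ITP-i. The part of airway cells in the emp difference was not tested.

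santa-maria, the carotenoid receptor of the head, was low in tubules. It had 238, 116 and 179 counts among control libraries, 46, 103 and 71 among yki3SA and 47, 36 and 17 among ITP-i libraries, which is 5.92, 3.11 and 5.395 CPM, then 1.255, 2.305 and 1.19 CPM, then 1.19, 0.919 and 0.401 CPM. Every control library exceeded every tumour library. It fell 3.04-fold in yki3SA against control (log2 -1.60, SE 0.46, adjusted p = 0.0264, edgeR), and was 5.74-fold lower in ITP-i than in control (log2 -2.52, SE 0.48, adjusted p = 0.00858). Between ITP-i and yki3SA the difference was not called (log2 -0.92, SE 0.47, adjusted p = 0.184). The yki3SA call was lost without control 1, control 3, yki3SA 1 or yki3SA 3 (log2 -1.45, -1.54, -1.49 and -1.45, adjusted p = 0.0816, 0.0709, 0.0795 and 0.0734, within a range of 0.00276 to 0.14 over its 19 alternatives), while the ITP-i call held in all 19. Of its exon bases, 528 of 5563 lie opposite exons of CG5973, which was at 5.69, 0.972 and 2.40 CPM for control, yki3SA and ITP-i. The strand setting of the counting is not given, so reads in that stretch cannot be told apart.

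crq, the receptor for apoptotic cells, was the only one of the 5 tested that was called higher in yki3SA against control. It was at 167, 198 and 161.5 CPM for control, 226, 254 and 227 CPM for yki3SA and 241, 232 and 216.5 CPM for ITP-i. Both tumour groups lay above all control libraries and overlapped each other. crq rose 1.34-fold in yki3SA (175.5 ± 19.6 to 235.5 ± 15.9 CPM; log2 0.42, SE 0.11, adjusted p = 0.0194, edgeR). In ITP-i against control it was 1.31-fold higher without passing the test (log2 0.39, SE 0.11, adjusted p = 0.0591), and ITP-i and yki3SA differed by a log2 fold change of -0.04 (SE 0.11, adjusted p = 0.856). The yki3SA call was lost without control 1, control 3 or yki3SA 2 (log2 0.36, 0.34 and 0.34, adjusted p = 0.0896, 0.104 and 0.0986, within 0.00131 to 0.122 over 20 alternatives). ITP-i against control was called without control 2 (log2 0.47, adjusted p = 0.0383, within 0.0173 to 0.228). Hemocytes, the fly's macrophages, are the known site of crq, and the summed level of 13 hemocyte markers was 109 to 159 CPM for control, 57.0 to 62.5 CPM for yki3SA and 60.4 to 89.95 CPM for ITP-i. The hemocyte-restricted receptor genes NimC1 and eater were at 0.330 and 0.160 CPM for control and 0.298 and 0.325 CPM for yki3SA, near the level of a few counts. Of 11 tested hemocyte markers 5 fell in yki3SA against control, against 14% of all genes. Among them were the collagen genes Col4a1 (46.2 to 15.6 CPM) and vkg (33.7 to 9.28 CPM) and the GATA factor gene srp (40.6 to 15.0 CPM), which made up most of the sum. Hml, at 4.29, 4.05 and 5.22 CPM for the 3 groups, was not called. The summed fat body markers were at 6.87% of their control mean in yki3SA. The part of fat body in the fall of Col4a1, vkg and srp was not tested. Without the 3 libraries with antennal transcripts 2 markers, Col4a1 and srp, were still called. The part of hemocytes in the crq difference was not tested. Of the exon bases of crq, 448 of 2848 lie opposite exons of expanded (ex), a Hippo pathway gene at 61.7 ± 8.51 CPM for control and 83.2 ± 19.0 CPM for yki3SA, and reads there cannot be told apart without strand.

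pes, the mycobacteria uptake receptor, was at 102, 134.5 and 113 CPM for control, 98.6, 113 and 93.5 CPM for yki3SA and 128, 150 and 129 CPM for ITP-i. The ITP-i libraries lay above all yki3SA libraries and overlapped control. pes rose 1.34-fold in ITP-i against yki3SA (101.6 ± 10.03 to 135.9 ± 12.6 CPM; log2 0.42, SE 0.13, adjusted p = 0.0488, edgeR). Against control the log2 fold change was -0.20 in yki3SA (SE 0.13, adjusted p = 0.292) and 0.22 in ITP-i (SE 0.13, adjusted p = 0.353). The call in ITP-i against yki3SA ended in 11 of 20 alternatives (adjusted p = 0.0127 to 0.248). They include the fits without control 3 (log2 0.44), without yki3SA 1, yki3SA 2 or yki3SA 3 (log2 0.42, 0.52 and 0.37) and without ITP-i 1, ITP-i 2 or ITP-i 3 (log2 0.46, 0.35 and 0.46), and total-count scaling (log2 0.22, adjusted p = 0.248).

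Snmp1, the pheromone co-receptor, was at 15.3, 15.99 and 17.0 CPM for control, 10.4, 13.25 and 12.1 CPM for yki3SA and 15.8, 19.2 and 14.0 CPM for ITP-i. The yki3SA libraries lay below all others. Neither difference passed the test, with a log2 fold change of -0.43 in yki3SA against control (SE 0.16, adjusted p = 0.061, edgeR) and 0.45 in ITP-i against yki3SA (SE 0.16, adjusted p = 0.0646). ITP-i and control differed by 0.02 (SE 0.16, adjusted p = 0.953). yki3SA against control was called in 5 of 20 alternatives, among them DESeq2 (adjusted p = 0.0241) and the fit without ITP-i 2 (log2 -0.46, adjusted p = 0.0426), within 0.0241 to 0.535. ITP-i against yki3SA was called in 4, among them the fit without ITP-i 3 (log2 0.56, adjusted p = 0.0435, within 0.0284 to 0.289). Snmp1 is known from the antenna. Control 1, with Obp83a at 0 counts, held 616 counts of Snmp1, against 596 and 564 in control libraries 2 and 3, with 806 and 782 counts of Obp83a. The part of antennal RNA in the Snmp1 level was not tested. Of 9 genes listed for pheromone detection 6 were tested, and with edgeR 0 were called in any comparison. At an unadjusted p under 0.05 edgeR found 0 of them in yki3SA against control, 1 lower in ITP-i against yki3SA and 4 lower in ITP-i against control. DESeq2 called 2 lower in the last of these and limma-voom 0 in all 3.

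**Figure D2:**
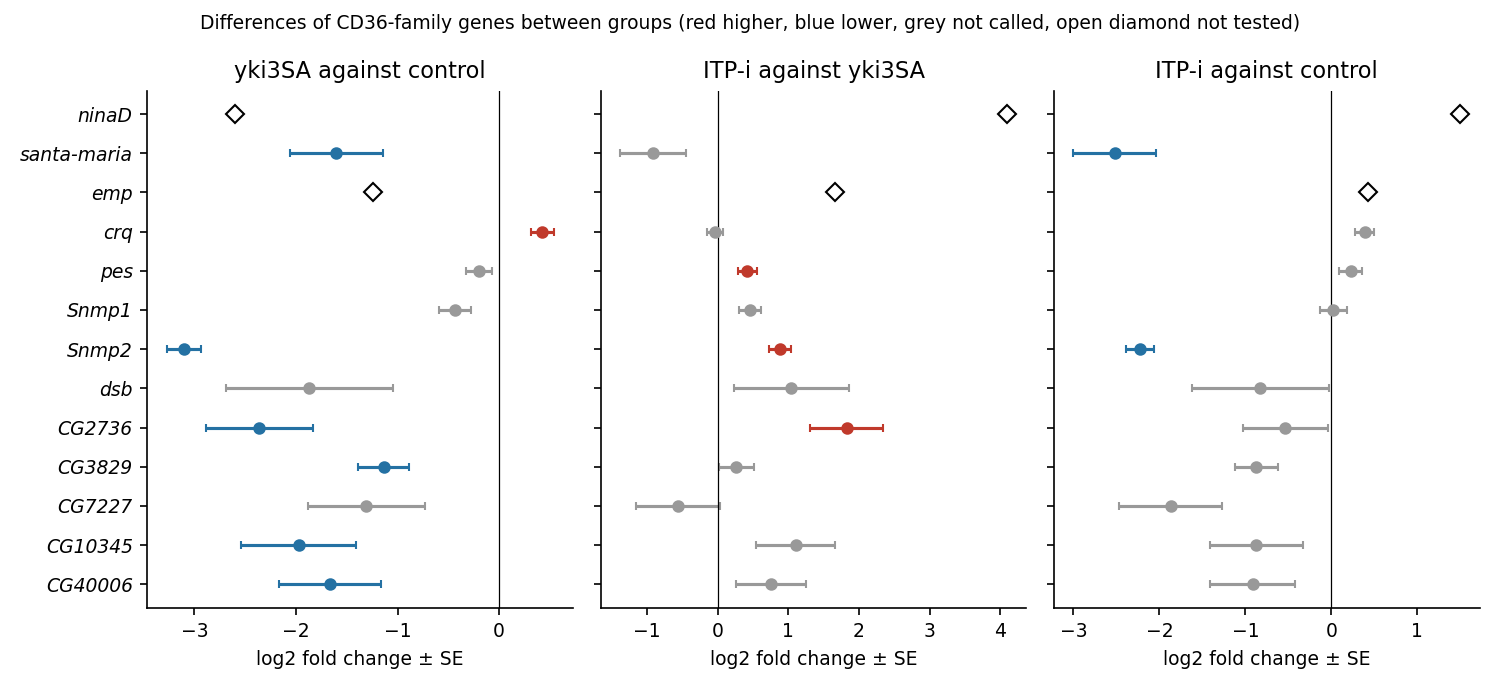
Log2 fold change ± SE of the 7 genes and of 6 further CD36-family genes in the 3 comparisons, each panel with its own linear axis. Red and blue points were called higher and lower, grey points were not called, and open diamonds are ninaD and emp, which were not tested. In yki3SA against control crq is the only one of the 13 genes to the right of 0, and Snmp2 lies farthest to the left.

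Scaling moved these differences together. With total counts in place of TMM factors, the all-gene median of log2 fold changes shifted by 0.294 in yki3SA against control, by -0.202 in ITP-i against yki3SA and by 0.093 in ITP-i against control. On that scale the yki3SA differences were -2.82 for Snmp2, -2.30 for ninaD, -0.95 for emp, -1.31 for santa-maria and 0.71 for crq, and that of pes turned from -0.20 to 0.085 without being called in either. The share of called genes that were higher was 53.7% with TMM and 77.9% with total counts in yki3SA against control, and 51.2% and 28.2% in ITP-i against yki3SA. In ITP-i against control it was 60.6% and 71.9%.

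The fly genome holds further members of the family, of which 7 others are listed here. CG31741 had 0 counts in all 9 libraries, where 3 counts would correspond to between 0.0502 and 0.0904 CPM. This gene lies next to ninaD in the Ensembl annotation. The annotation and rules behind the counts are not given, so absent RNA and uncounted reads cannot be told apart for it. Of the 6 that were tested, CG2736, CG3829, CG10345 and CG40006 fell in yki3SA against control and 0 rose (14% and 16.2% of all genes). The genes dsb (debris buster) and CG7227 were not called by edgeR. dsb was called lower by DESeq2 (log2 -1.93, adjusted p = 0.0441) and by limma-voom (log2 -2.62, adjusted p = 0.0428), so that both tools called 5 of the 6 lower. The median log2 fold change of the 6 was -1.77, against 0.072 over all genes. Without the 3 libraries with antennal transcripts, CG3829 was the 1 of the 6 still called.

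CG2736 and CG3829 flank emp. CG2736 was at 13.9, 8.24 and 22.4 CPM for control, 1.555, 4.86 and 2.23 CPM for yki3SA and 15.4, 9.60 and 5.70 CPM for ITP-i. It fell 5.13-fold in yki3SA (log2 -2.36, SE 0.52, adjusted p = 0.00827, edgeR), the libraries of the groups not overlapping, and rose 3.54-fold in ITP-i against yki3SA (log2 1.82, SE 0.52, adjusted p = 0.0335). The latter call ended with the replicate number as a block (log2 1.83, adjusted p = 0.0595). It also ended without yki3SA 1, yki3SA 3, ITP-i 1 or ITP-i 2 (log2 1.55, 1.67, 1.41 and 1.88, adjusted p = 0.0944, 0.0898, 0.126 and 0.0677, within 0.00118 to 0.126). CG3829 was at 36.4, 22.1 and 34.5 CPM for control, 11.5, 15.8 and 14.9 CPM for yki3SA and 20.6, 18.6 and 11.55 CPM for ITP-i. It fell 2.20-fold in yki3SA (log2 -1.14, SE 0.25, adjusted p = 0.00846), a call that held in all 20 alternatives. In ITP-i it was not called against yki3SA (log2 0.26, SE 0.25, adjusted p = 0.487) or against control (log2 -0.87, SE 0.25, adjusted p = 0.0567), although it was called lower than control without control 2 (log2 -1.08, adjusted p = 0.0231, within 0.0088 to 0.156). The group means of CG3829 were 31.0 ± 7.78 CPM for control and 16.9 ± 4.75 CPM for ITP-i. emp and CG3829 share 27 exon bases on opposite strands.

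CG10345 and CG40006 were near the lower end of detection. CG10345 was at 3.06, 4.00 and 1.60 CPM for control and 1.15, 0.291 and 0.770 CPM for yki3SA (log2 -1.97, SE 0.57, adjusted p = 0.0261, edgeR). That call was lost without control 1, control 2, yki3SA 2 or yki3SA 3 (log2 -1.96, -1.69, -1.62 and -2.03). CG40006 was at 1.44, 3.52 and 2.71 CPM for control and 0.982, 0.336 and 1.09 CPM for yki3SA (log2 -1.67, SE 0.50, adjusted p = 0.0325). Its call was lost without control 2, control 3, yki3SA 1 or yki3SA 2 (log2 -1.40, -1.66, -1.87 and -1.33). The adjusted p ranged over 19 alternatives from 0.00248 to 0.146 for CG10345 and from 0.00552 to 0.36 for CG40006. CG7227, which lies next to pes, was at 0.645 ± 0.195 CPM for control, 0.257 ± 0.0822 CPM for yki3SA and 0.175 ± 0.0715 CPM for ITP-i. In ITP-i against control 0 of the 6 genes were called with edgeR, 2 were lower at an unadjusted p under 0.05, and DESeq2 and limma-voom each called 1 lower.

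Per length of exon, the order of the 14 genes changed between groups. In control, crq was highest at 61.6 ± 6.88 CPM per kb, followed by pes (30.3 ± 4.30), Snmp2 (26.0 ± 1.73), emp (20.1 ± 1.69) and ninaD (11.3 ± 2.35 CPM per kb). pes and Snmp2 overlapped over their libraries, as did ninaD, CG3829, CG2736 and Snmp1 each with its next lower neighbour up to Snmp1. In yki3SA the order of levels was crq (82.7 ± 5.58), pes (26.4 ± 2.61), emp (8.51 ± 0.5) and Snmp1 (5.23 ± 0.624 CPM per kb), then CG3829, Snmp2 at 3.03 ± 0.386 and ninaD at 1.865 ± 0.295 CPM per kb. In ITP-i the levels of pes (35.3 ± 3.27), ninaD (31.9 ± 6.40) and emp (26.9 ± 2.72 CPM per kb) overlapped in that order below crq (80.6 ± 4.29 CPM per kb). The rank of ninaD in the order was thus 5 in control, 7 in yki3SA and 3 in ITP-i, where it was not separated from pes or emp. santa-maria was at 0.865 ± 0.268, 0.285 ± 0.113 and 0.1504 ± 0.0722 CPM per kb in the 3 groups. Exon lengths come from Ensembl and may differ from the annotation the authors used.

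**Figure D3:**
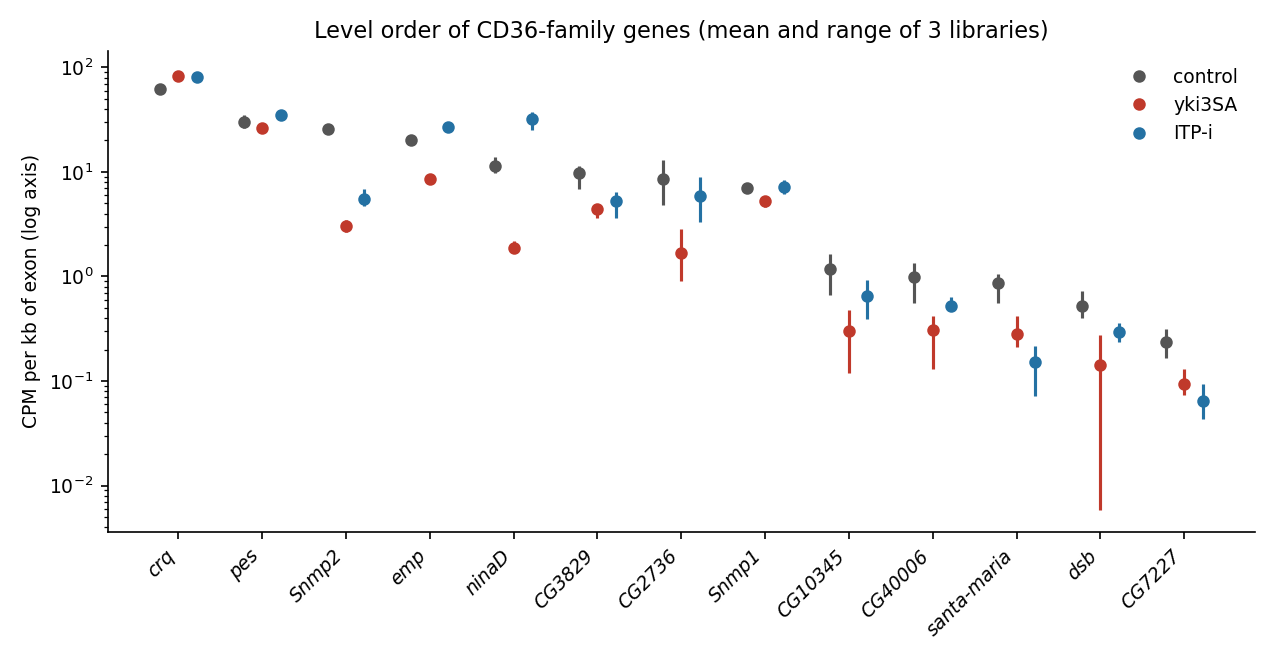
Level of 13 CD36-family genes in CPM per kb of exon (log axis), ordered by the control mean, with control in grey, yki3SA in red and ITP-i in blue. Points are means and lines the range of 3 libraries, and CG31741, at 0 counts, is not shown. crq is highest in all 3 groups, and ninaD moves from 1.865 CPM per kb in yki3SA to 31.9 CPM per kb in ITP-i.

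Genes with the most similar pattern were found by Pearson's r of log2(CPM + 0.5) over the 9 libraries, among genes of at least 10 CPM on average. All 9 points share the same libraries and 3 group levels, and r describes them with no test. For Snmp2 they were Egfrap (r = 0.99), CG4741 (0.99), the potassium channel gene Irk3 (0.98) and Reg-2 (0.98). Irk3, a principal cell channel, was at 2754 CPM for control, 986 CPM for yki3SA and 1169 CPM for ITP-i, and CG4741 was at 68.8, 0.773 and 1.90 CPM. For ninaD they were CG10911 (0.98), the adenylyl cyclase gene ACXD (0.98), emp (0.98) and the glycosyltransferase gene Ugt304A1 (0.97). ninaD and emp were picked for one pattern, so their likeness is no finding. For emp they were Actn (0.98), CycG (0.98), Ugt304A1 (0.98) and ninaD (0.98). For santa-maria they included Cyp9f3, alpha-Est7 and PLCXD (0.94 to 0.96). For crq they were Tm1, promL, RabX1 and Pak (0.96 to 0.98), RabX1 being at 15.6, 54.1 and 49.4 CPM for control, yki3SA and ITP-i. For pes they were prage, CG12991, CG10126 and CG1246 (0.93 to 0.96), and for Snmp1 msk, Ehbp1, Dif and Ubr3 (0.94 to 0.98).

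**Figure D4:**
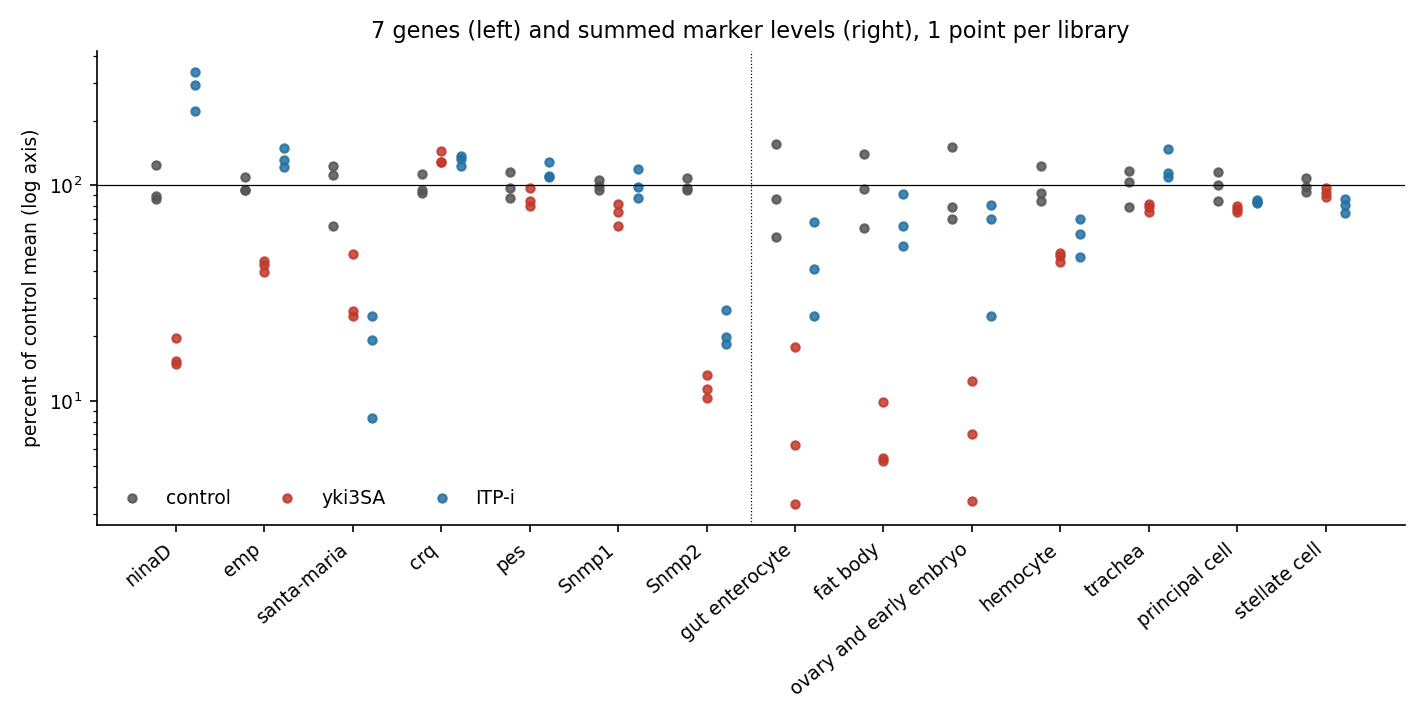
The 7 genes (left of the dotted line, CPM scaled with TMM factors) and the summed levels of 7 marker lists (right, CPM of total counts), each library as a percent of the control mean on a log axis, with control in grey, yki3SA in red and ITP-i in blue. By mean, the marker lists apart from stellate cell are lowest in yki3SA, with gut, fat body and ovary markers farthest down. ninaD, emp, pes, Snmp1 and Snmp2 are lowest there too. In ITP-i ninaD lies above control at 222% to 335% and Snmp2 below it at 18.3% to 26.3%.

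Genes listed for carotenoids and retinoids after uptake reached at most 8.02 CPM in any library, apart from the rhodopsin gene ninaE. ninaE was at 51.1, 61.0 and 95.0 CPM for control, 54.3, 63.7 and 24.1 CPM for yki3SA and 57.7, 53.7 and 58.75 CPM for ITP-i. It was not called in any comparison, and the source of its reads was not tested. Of 7 listed, 4 were tested, and pinta, a retinol-binding protein gene, fell from 7.70 ± 0.335 to 4.18 ± 0.569 CPM for yki3SA against control (log2 -0.88, SE 0.22, adjusted p = 0.0143, edgeR), with 0 genes risen. The pinta call was lost without the 3 libraries with antennal transcripts (log2 -0.80), a fit with a lone control library. The median of the 4 was -0.71. ninaB, the carotenoid cleavage enzyme, had 1 to 11 counts per library and was not tested. In ITP-i against yki3SA edgeR called 0 of the 4, also at an unadjusted p under 0.05, and so did DESeq2 and limma-voom. pinta was then at 4.74 ± 0.991 CPM. ninaD, 17.1-fold higher in that comparison, and santa-maria, with a log2 fold change of -0.92 that was not called, differed in sign.

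Lipoproteins carry carotenoids and lipids between fly organs. Of 9 genes for lipoproteins and their receptors, 3 fell and 0 rose in yki3SA against control (14% and 16.2% of all genes), with a median log2 fold change of -0.76. apolpp, the main lipoprotein scaffold and a fat body product, fell from 428 ± 231 to 30.9 ± 15.0 CPM (log2 -3.79, adjusted p = 0.000886, edgeR). Mtp, which loads lipid onto it, fell from 32.6 ± 2.41 to 19.2 ± 2.25 CPM (adjusted p = 0.00162), and Apoltp fell from 66.6 ± 30.9 to 21.5 ± 11.5 CPM (adjusted p = 0.0286). The Apoltp call was lost without control 1, control 3, yki3SA 1 or yki3SA 3 (log2 -1.71, -1.25, -1.36 and -1.56). In ITP-i against yki3SA 2 of the 9 rose and 0 fell (10.6% and 10.1% of all genes). apolpp rose to 247 ± 140 CPM (7.985-fold, adjusted p = 0.00471, edgeR) and cv-d from 6.02 ± 0.930 to 13.6 ± 4.70 CPM (adjusted p = 0.0246). The cv-d call was lost without yki3SA 1, yki3SA 3, ITP-i 1 or ITP-i 2 (log2 1.10, 1.18, 1.09 and 0.98). Without the 3 libraries with antennal transcripts apolpp, Mtp and the yolk receptor gene yl were called in yki3SA against control, and apolpp and yl in ITP-i against yki3SA. With all libraries yl was not called. It was at 37.1 to 49.6 CPM for control, 8.16, 2.71 and 44.5 CPM for yki3SA, the last being the library left out, and 18.6 to 61.1 CPM for ITP-i. The fat body markers moved with apolpp, at 6.87% of their control mean in yki3SA and 69.7% in ITP-i, and their part was not tested. The lipoprotein receptor gene LpR2 was at 105 ± 13.7, 88.3 ± 24.7 and 88.25 ± 11.25 CPM in the 3 groups and was not called.

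Of 10 sterol transport genes 8 were tested. By edgeR 2 rose and 1 fell in yki3SA against control (16.2% and 14% of all genes). In ITP-i against yki3SA 2 also rose and 1 fell (10.6% and 10.1% of all genes). In yki3SA against control Npc2a rose from 44.7 ± 12.4 to 119 ± 22.5 CPM (log2 1.42, adjusted p = 0.000986, edgeR) and Npc2b from 11.2 ± 2.40 to 21.2 ± 4.36 CPM (adjusted p = 0.028), while Npc2h fell from 13.3 ± 5.24 to 1.87 ± 0.751 CPM (log2 -2.83, adjusted p = 0.00119). These encode small secreted sterol-binding proteins. The Npc2b call was lost without control 1, control 3, yki3SA 1 or yki3SA 2 (log2 0.79, 0.81, 0.71 and 0.93). In ITP-i against yki3SA Npc2a fell to 62.45 ± 9.015 CPM (log2 -0.93, adjusted p = 0.0127), a call lost without ITP-i 1 or ITP-i 2 (log2 -0.92 and -0.82). Npc2d rose from 1.28 ± 0.886 to 4.875 ± 1.53 CPM and Npc2h to 4.78 ± 1.93 CPM (adjusted p = 0.0286 and 0.0447). With the replicate number as a block the Npc2h call was lost (log2 1.27, adjusted p = 0.0809). Both of these calls ended when 1 library was left out, for Npc2d yki3SA 2, yki3SA 3, ITP-i 1 or ITP-i 2 (log2 1.76, 1.61, 1.74 and 1.87), and for Npc2h control 1, yki3SA 1, yki3SA 3, ITP-i 1 or ITP-i 3 (log2 1.37, 1.19, 1.22, 1.03 and 1.36). Without the 3 libraries with antennal transcripts the calls of Npc2a and Npc2h in yki3SA against control and of Npc2a in ITP-i against yki3SA were kept. The median log2 fold change of the list was 0.29 in the first comparison and 0.32 in the second.

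Mammalian CD36 is known for fatty acid uptake. Of 12 tested genes for fatty acid uptake and binding, 3 fell and 0 rose in yki3SA against control by edgeR (14% and 16.2% of all genes), with a median of -0.09. DESeq2 and limma-voom each called 1 of the 12 higher, and without the 3 libraries with antennal transcripts edgeR called 1 higher and 2 lower. Acsl, which activates long-chain fatty acids, fell from 707 ± 139 to 318 ± 31.2 CPM (log2 -1.15, adjusted p = 0.0016, edgeR) and fabp, a fatty acid binding protein gene, from 71.9 ± 2.07 to 51.4 ± 8.79 CPM (adjusted p = 0.0279). The transporter gene Fatp3 fell from 53.9 ± 38.3 to 21.8 ± 1.19 CPM (adjusted p = 0.0348). The fabp call was lost without control 1, control 3, yki3SA 2 or yki3SA 3 (log2 -0.50, -0.50, -0.42 and -0.46), and with total-count scaling (log2 -0.20). The Fatp3 call was lost without control 1, any yki3SA library or ITP-i 1 (log2 -0.61, -1.30, -1.34, -1.37 and -1.31). In ITP-i against yki3SA 1 of the 12 rose and 0 fell (10.6% and 10.1% of all genes). It was Acsl, which rose to 512 ± 103 CPM (log2 0.69, adjusted p = 0.0276, edgeR). That call was lost without any of the 3 yki3SA libraries (log2 0.72, 0.76 and 0.62) or ITP-i 1 or ITP-i 2 (log2 0.55 and 0.67).

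Of 17 tested receptors for engulfment outside the CD36 family, 5 fell and 0 rose in yki3SA against control (14% and 16.2% of all genes), with a median log2 fold change of -0.56. Of the 5, NimC4 and Sr-CIV were still called without the 3 libraries with antennal transcripts, where scb, an integrin subunit gene, was called higher. NimC4 (Simu), which recognises apoptotic cells, fell from 4.18 ± 0.593 to 0.1075 ± 0.167 CPM (log2 -5.39, adjusted p = 0.00275, edgeR). The scavenger receptor gene Sr-CIV fell from 119 ± 26.1 to 60.9 ± 12.3 CPM (log2 -0.97, adjusted p = 0.00766), NimB2 from 21.2 ± 6.62 to 6.83 ± 3.10 CPM (adjusted p = 0.00928) and NimB5 from 1.61 ± 0.645 to 0.488 ± 0.186 CPM (adjusted p = 0.0389). The last of the 5, NimC2, was at 0.289 ± 0.136 and 0.01655 ± 0.01454 CPM (adjusted p = 0.048). The NimB5 call was lost without control 1, control 3 or any yki3SA library (log2 -1.87, -1.36, -1.46, -1.91 and -1.88). In ITP-i against yki3SA 2 of the 17 rose and 1 fell (10.6% and 10.1% of all genes). Sr-CIV rose to 184 ± 37.4 CPM (log2 1.59, adjusted p = 0.00113, edgeR) and NimC4 to 1.855 ± 0.202 CPM (log2 4.22, adjusted p = 0.0124). PGRP-LC fell from 80.0 ± 3.94 to 56.8 ± 4.90 CPM (adjusted p = 0.0287). The PGRP-LC call was lost without any 1 of the 6 libraries compared (log2 -0.54 to -0.43). By mean, Sr-CIV was lowest in yki3SA and highest in ITP-i (119, 60.9 and 184 CPM), the order for which ninaD and emp were picked. Unlike them, it overlapped between ITP-i and control, with ITP-i 3 at 142 CPM and control 1 at 149 CPM. That difference (log2 0.63) was called in 5 of 20 alternatives and not in the main fit. The share of all genes with this order was not counted. In ITP-i against control edgeR called 0 of the 17 genes (10.5% of all genes). At an unadjusted p under 0.05 edgeR found 2 higher and 1 lower. DESeq2 called 1 higher and limma-voom 0. drpr (Draper), the main glial engulfment receptor, was at 272.5 ± 45.2, 297 ± 46.45 and 268 ± 51.0 CPM and was not called.

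Of 13 genes that act below these receptors, 8 rose and 0 fell in yki3SA against control (16.2% and 14% of all genes). Their median log2 fold change was 0.41, against 0.072 over all genes. Orai, the store-operated calcium channel, rose from 167 ± 8.28 to 309 ± 33.3 CPM (log2 0.89, adjusted p = 0.00096, edgeR), and pall, an F-box gene needed for phagocytosis, from 21.8 ± 4.99 to 46.1 ± 8.36 CPM (log2 1.08, adjusted p = 0.00395). The ryanodine receptor gene RyR rose from 6.255 ± 0.621 to 11.6 ± 1.63 CPM (adjusted p = 0.00562) and the GTPase gene Rac1 from 75.6 ± 0.769 to 101 ± 4.48 CPM (adjusted p = 0.00582). ced-6, the adaptor that binds Draper, rose from 116 ± 10.01 to 175 ± 23.2 CPM (adjusted p = 0.00782), and Ced-12, Src42A and Stim were also called. Without the 3 libraries with antennal transcripts, which leaves a lone control library, the call of Orai was kept and the others were lost. The log2 fold changes in that fit were 0.81 for pall, 0.90 for RyR, 0.39 for Rac1 and 0.47 for ced-6. These genes act in many cells besides phagocytes. In ITP-i against yki3SA 2 of 13 fell and 0 rose (10.1% and 10.6% of all genes). ced-6 fell to 109.5 ± 10.8 CPM (log2 -0.67, adjusted p = 0.007) and mbc from 224 ± 26.3 to 154 ± 22.3 CPM (log2 -0.54, adjusted p = 0.0195), the latter a call lost without yki3SA 2 or ITP-i 1 (log2 -0.42 and -0.55). The ced-6 call was lost without both tumour libraries numbered 3 (log2 -0.50, adjusted p = 0.0522). In ITP-i against control RyR (11.4 CPM for ITP-i, log2 0.86, adjusted p = 0.0148) and Orai (249 CPM, log2 0.57, adjusted p = 0.0198) were higher and mbc was lower (log2 -0.59, adjusted p = 0.0199). Each of these 3 calls was lost without control 1, control 3 or ITP-i 1, those of Orai and RyR also without ITP-i 2 and that of mbc without ITP-i 3 (log2 0.51 to 0.58 for Orai, 0.72 to 0.87 for RyR and -0.60 to -0.48 for mbc). All 3 were also lost without the libraries with antennal transcripts (log2 0.64 for Orai, 0.87 for RyR and -0.61 for mbc).

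**Figure D5:**
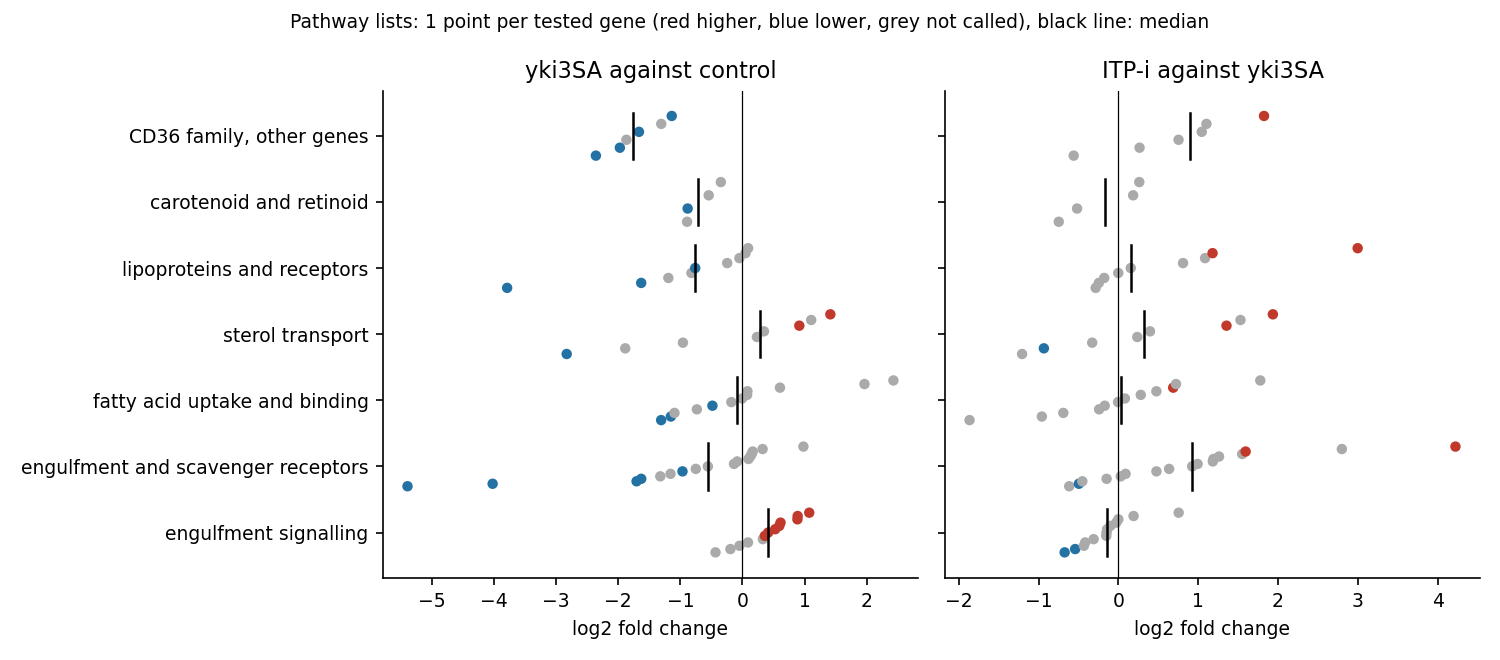
Log2 fold change of every tested gene of the further CD36-family genes and 6 pathway lists, in yki3SA against control (left) and ITP-i against yki3SA (right), each panel with its own linear axis. Points are genes, red called higher, blue called lower and grey not called, and black lines are list medians. In the left panel the engulfment signalling genes lie to the right with a median of 0.41 and the further CD36-family genes to the left with a median of -1.77.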

How the data were processed

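Counts per gene for 9 libraries were deposited as raw counts, not normalized by the authors, and every value is a whole number. TopHat, Cufflinks, HTSeq and DESeq appear in the submitters' processing notes, with no version, role or order. The sources used here do not give the build, annotation release or strand setting behind the counts. Of 17611 identifiers, 17552 were matched to a symbol. Exon lengths and neighbouring genes come from the Ensembl annotation, whose build may differ, and no coordinates are printed.

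The 10253 genes that passed edgeR's filterByExpr (edgeR 4.0.16 under R 4.3.3) were scaled by TMM and fitted in one model of the 3 groups, which leaves 6 residual degrees of freedom. Its quasi-likelihood test was adjusted by Benjamini-Hochberg, and SE is the log2 fold change divided by the square root of F. The test was run on simulated data first. Each family gene and each pathway gene named by rule has 18 to 20 alternatives: other scalings, filters, DESeq2 1.42.0, limma-voom (limma 3.58.1), 2-group fits, a replicate block and libraries left out. Leaving out the 3 libraries with antennal transcripts was chosen after the data were seen. Plots used Python 3.11.15 and matplotlib 3.10.9.

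Replicate numbers in the titles were checked for pairing by the correlation of deviations from group means. Same-numbered libraries of ITP-i and yki3SA correlated at 0.139, 0.141 and 0.272, all above 0.1, and differently numbered ones at up to 0.083. The main fit and its p-values have no block. A separate fit takes libraries as paired by replicate number, over all 9 libraries with control included. Its value is printed where it changes a call in ITP-i against yki3SA. That pairing comes from the data and not from the labels.

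The genes, lists and naming rule were chosen with earlier results of these data known. The rule names the 7 genes, the 7 other family genes, up to 4 called genes per pathway list and comparison by smallest p, and the 4 genes most like each of the 7, of which 1 is not reported here. LpR2, drpr, NimC2, scb, yl, ninaB, ninaE, Ced-12, Src42A, Stim and the marker genes with values were named outside it, after their values were seen.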

Additional observations from a re-analysis of the deposited data

How the results depend on the processing

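Under the 18 to 20 alternatives run for each family gene and each pathway gene named by rule, no direction of a called difference reversed. Marker genes, NimC2, Ced-12, Src42A and Stim were not followed through them, apart from the counts without the libraries with antennal transcripts. The number of genes called ranged from 2177 to 3150 in yki3SA against control, from 1028 to 2047 in ITP-i against yki3SA and from 642 to 1095 in ITP-i against control when each library was left out in turn (3091, 2126 and 1077 with all). Counts moved by over 1.5 times in ITP-i against yki3SA without yki3SA 2 (1371) or ITP-i 1 (1028) or 2 (1308), and in ITP-i against control without control 1 (717) or 3 (714) or ITP-i 1 (642) or 2 (683). Without both tumour libraries numbered 3, 1362 genes were called in ITP-i against yki3SA. Without control libraries 2 and 3 and yki3SA 3, which leaves a lone control library that is assumed to vary like the other groups, the counts were 1319, 1295 and 549. In that fit the calls of santa-maria, crq and CG2736 in yki3SA against control were lost, while those of Snmp2 and CG3829 were kept. The log2 fold changes of the first 3 genes were -1.75, 0.50 and -2.13, against -1.60, 0.42 and -2.36 with all libraries. The cause was not tested, and the smaller number of samples is part of the construction. With the replicate number as a block, 3189, 2287 and 1137 genes were called. Among the 14 family genes the block ended the call of CG2736 in ITP-i against yki3SA (adjusted p = 0.0595) and brought crq in ITP-i against control under the threshold (adjusted p = 0.0388), and it changed no other call. Between yki3SA and control, same-numbered libraries correlated at 0.099, -0.039 and 0.049, and differently numbered ones at up to 0.073. Between ITP-i and control the values were 0.218, 0.008 and 0.154, and up to 0.132 for different numbers. Not all same-numbered values there were above 0.1, which does not settle if those libraries are paired. Depth limits CG7227, dsb, CG10345 and CG40006, which had under 5 CPM in every library, so that small differences of these genes were not detectable. Intervals from counting error are not given, since the spread between libraries was used.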
